A study of Mus musculus with 4 samples.

Results

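The 10 genes described here encode Eph receptors and their ephrin ligands: the receptors *Epha2*, *Epha4*, *Epha5*, *Epha7*, *Ephb2* and *Ephb4*, and the ligands *Efna1*, *Efna5*, *Efnb1* and *Efnb2*. They were chosen by gene symbol, matched through the Ensembl identifier, and all 10 were among the 14924 genes of the expression table. The gene family holds further members, and 20 of the 22 family genes looked up were in the table. The study asked how the lens transcriptome differs when S100A4, a small calcium-binding protein of lens fibers, is missing. It compared 2 lens libraries of *S100A4*-/- mice, a null line kept on the C57BL/6J background, with 2 libraries of WT littermates. All mice were 1 month old, with no treatment given in the labels, both sexes were used in the study, and each library came from 6 to 12 pooled lenses. The sexes in each pool are not given in the labels. Sequencing was stranded, single-end and 50 bases long. The *S100A4*-/- libraries held 81602367 and 74108017 reads assigned to genes, and the WT libraries 70253985 and 68038158. The values are normalized read counts, that is reads divided by 1 size factor per library and not by gene length, and 1 read was worth between 0.856 and 1.09. Nothing in the labels ties a pool to named animals, so the p-values measure the spread between these pooled libraries.

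Eph receptors are receptor tyrosine kinases that bind ephrins on the surface of a neighbouring cell. Ephrin-A ligands are tethered to the membrane by a lipid anchor and ephrin-B ligands span it, and signals run into both the receptor cell and the ligand cell, where they act on cell adhesion, repulsion and the actin cytoskeleton. In the lens the family is known for the packing of fiber cells and for the contact between epithelium and fibers, and loss of EphA2 or ephrin-A5 in mice has been linked to cataract.

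Because the family shares a conserved kinase domain, the coding sequences were first compared to see whether a read of 50 bases could belong to more than 1 member. Among 190 pairs of family genes, 0 shared a coding run of at least 50 bases. The longest shared runs are shown as the places where members are hardest to tell apart, written 5′ to 3′ on the coding strand, in lower case throughout, with GRCm38 coordinates. The longest of all, 38 bases, joined *Ephb1* (chr9:101936118-101936155, minus strand) and *Ephb3* (chr16:21221690-21221727, plus strand). The longest with any of the 10 genes, 35 bases, joined *Epha7* (chr4:28951338-28951372, plus strand) and *Ephb1* (chr9:101936109-101936143, minus strand). The longest within the 10 genes, 32 bases, joined *Epha2* (chr4:141322637-141322668, plus strand) and *Epha7* (chr4:28951314-28951345, plus strand).
Ephb1 and Ephb3: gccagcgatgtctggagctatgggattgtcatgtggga
Epha7 and Ephb1: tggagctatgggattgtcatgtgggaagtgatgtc
Epha2 and Epha7: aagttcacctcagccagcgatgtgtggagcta
Of the windows of 50 bases in the transcripts of each of the 10 genes, at least 99.78% (the lowest share, in *Ephb2*) occurred in no other gene on either strand, and none of the shared windows lay in another Eph or ephrin gene.

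The sequence just before the transcription start was compared as well, since it is a property the choice of genes did not use. In the 250 bases before the start (RefSeq, GRCm38.p6), the dinucleotide CG was counted, which reads the same on both strands. The 10 genes held a median of 18 CG, from 9 in *Epha2* to 32 in *Efna5*, and a median GC content of 65.4%. The median was 16 CG over 11101 genes of the expression table with such a window and 6 over all 27025 genes with one, of which 91.7% held at least 1 CG. The windows of *Epha2* (chr4:141300971-141301220, plus strand, fewest CG), *Ephb4* (chr5:137349859-137350108, plus strand, 12 CG, the member with the smallest p-value below) and *Efna5* (chr17:62881318-62881567, minus strand, most CG) are printed to show this range, with each CG in capitals.
Epha2: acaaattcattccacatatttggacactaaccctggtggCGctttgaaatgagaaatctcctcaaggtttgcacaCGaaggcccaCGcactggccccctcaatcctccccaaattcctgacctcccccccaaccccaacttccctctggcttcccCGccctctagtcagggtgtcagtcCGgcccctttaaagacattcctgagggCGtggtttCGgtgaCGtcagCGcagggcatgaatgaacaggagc
Ephb4: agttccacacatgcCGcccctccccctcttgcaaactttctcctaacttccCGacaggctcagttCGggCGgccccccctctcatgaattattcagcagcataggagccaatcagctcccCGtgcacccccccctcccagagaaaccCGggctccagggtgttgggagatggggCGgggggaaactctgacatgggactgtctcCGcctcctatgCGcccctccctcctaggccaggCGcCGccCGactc
Efna5: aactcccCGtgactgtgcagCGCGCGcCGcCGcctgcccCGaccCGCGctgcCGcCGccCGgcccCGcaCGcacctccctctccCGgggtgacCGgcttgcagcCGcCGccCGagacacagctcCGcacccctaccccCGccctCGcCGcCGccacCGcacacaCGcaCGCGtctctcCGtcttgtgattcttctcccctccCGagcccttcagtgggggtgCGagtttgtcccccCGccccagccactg
Several CG of *Efna5* directly adjoin one another, whereas those of *Epha2* are spread singly. These counts describe the windows only.

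The deleted gene was examined first, as a check of the labels. *S100a4* (chr3:90603771-90606045) had 14.6 and 18.2 normalized reads without S100A4 against 14420 and 14385 in WT, a log2 fold change of -9.70 (SE 0.10, limma adjusted p = 6.42e-41). All 4 libraries matched their labels. The neighbouring *S100a5*, another gene of the S100 family, had 2625 and 2429 reads in *S100A4*-/- and 8 in each WT library. The ephrin-A genes *Efna1*, *Efna3* and *Efna4* lie on the same chromosome, 1.32, 1.28 and 1.27 megabases from *S100a4*. Of 66 other genes tested within 2 megabases of *S100a4*, 3 passed an adjusted p of 0.05 (4.55%, against 6.96% of all genes tested), with a median log2 fold change of 0.04 over the 66, and none of these ephrin genes was among them.

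No Eph receptor or ephrin gene passed the thresholds for a difference between *S100A4*-/- and WT lenses in limma, edgeR or DESeq2 fitted on all 4 libraries without a replicate block. Of the 10 genes, 0 reached 2-fold at an adjusted p of at most 0.05 in limma, where 3.72% of the 14780 genes tested did (550 genes, 539 of them higher in *S100A4*-/-, or 3.65%). At the adjusted p alone, 0 of the 10 and 0 of the 20 family genes passed, against 6.96% of all genes tested. At an unadjusted p under 0.05, *Ephb4*, *Epha4* and *Ephb2* were higher in *S100A4*-/- (3 of 10, against 11.0% of all genes tested) and 0 of 10 were lower (against 6.71%). edgeR on the recovered reads called 0 at the adjusted p (7.04% of all genes tested) and the same 3 genes unadjusted, in either direction (17.7%). DESeq2 called 0 (4.47%) and *Ephb4* alone (1 of 10, against 11.0%). Without *S100A4*-/- replicate 1, 1 of the 10 genes was past an unadjusted p of 0.05 in limma, against 13.4% of all genes in that fit. The median log2 fold change of the 10 genes was 0.17, from -0.10 to 0.56, beside -0.005 over all genes tested. Both *S100A4*-/- values lay above both WT values in 6 of the 10 genes (23.7% of all genes tested) and below them in *Epha2* and *Efnb2* (23.2%). Scaled to equal totals, 7 of the 10 genes lay above WT in both libraries and 0 lay below. No share of all genes is given for that scaling, so these 2 counts describe the 10 genes only. The 95% interval of the log2 fold change lay wholly within 2-fold in 9 of 10 genes, against 77.1% of all genes tested, so for these 9 a change of 2-fold lay outside the interval. The exception was *Epha7*, the least abundant member. In whole lenses, fewer cells of a type and less RNA per cell cannot be told apart in any of these values. The Y-linked gene *Eif2s3y* had a mean of 364 normalized reads in *S100A4*-/- and 197 in WT. Its log2 fold change was 0.885 (limma adjusted p = 2.28e-06), and the part of sex in the differences between the groups was not tested.

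**Figure D1:**
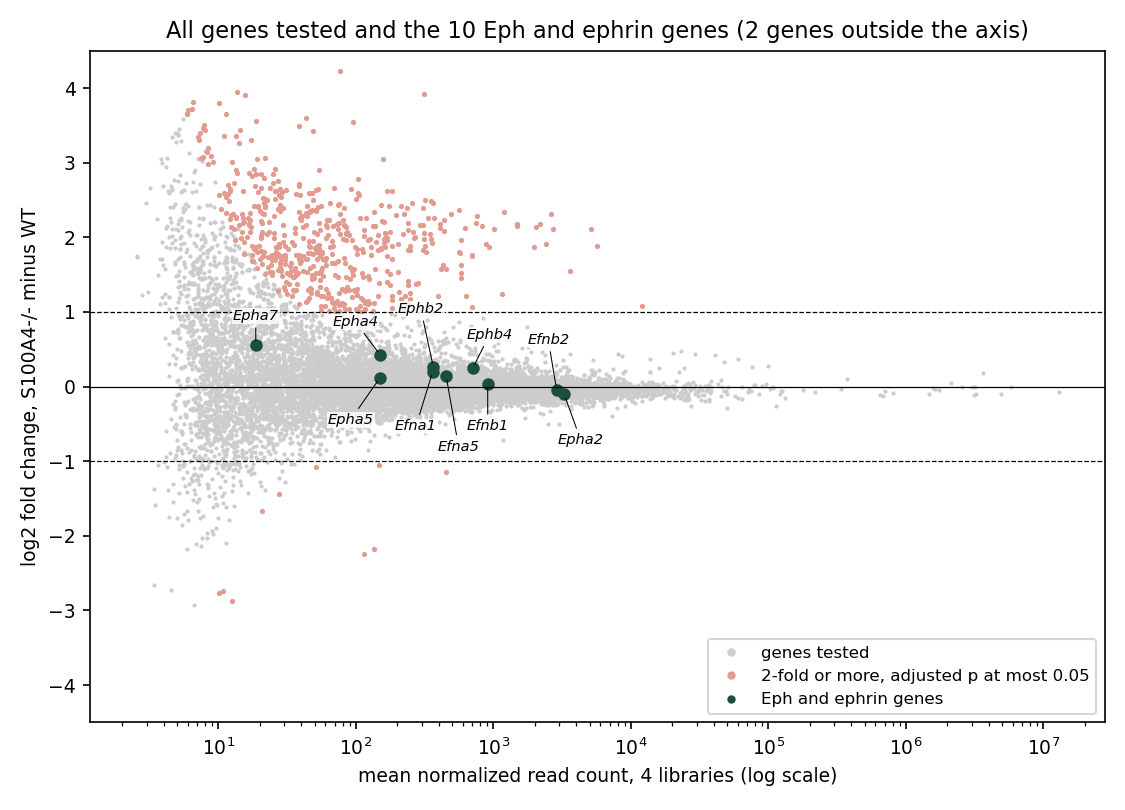
Log2 fold change, *S100A4*-/- minus WT (vertical axis), against the mean normalized read count of the 4 libraries (horizontal log axis) for the genes tested, with the 10 Eph and ephrin genes in green and the genes that passed both thresholds in red. 2 genes lie outside the vertical axis, and the green points sit between -0.10 and 0.56, all inside the dashed lines at 2-fold.

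*Epha2*, the receptor most studied in the lens, was the most abundant of the 10 genes. It lies at chr4:141301240-141329384 and had 3154 and 3144 normalized reads in *S100A4*-/- and 3513 and 3242 in WT. Both *S100A4*-/- libraries were below both WT libraries, by a gap to WT 2 that was smaller than the spread between the WT libraries. This gave a log2 fold change of -0.10 (SE 0.05, 95% interval -0.21 to 0.01, limma adjusted p = 0.351), a mean 6.76% below WT. It was -0.04 without WT replicate 1 and -0.16 without WT replicate 2.

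*Epha4*, a receptor that binds ligands of both classes, lies at chr1:77367185-77515088. Its values were 184 and 161 in *S100A4*-/- and 123 and 134 in WT, which did not overlap. Group means were 173 ± 16.2 and 128 ± 7.33 (SD, n = 2 libraries each). The log2 fold change of 0.42 (SE 0.17, 95% interval 0.08 to 0.76) had a limma adjusted p of 0.144. The mean was 34.5% above WT.

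*Epha5* and *Epha7*, both best known from neurons, were uneven between the *S100A4*-/- libraries. *Epha5* (chr5:84054761-84417382) had 182 and 131 normalized reads in *S100A4*-/- and 144 and 140 in WT, so the *S100A4*-/- libraries lay on either side of WT. Its log2 fold change was 0.12 (SE 0.17, 95% interval -0.24 to 0.47, limma adjusted p = 0.803), with -0.12 without *S100A4*-/- replicate 1 and 0.35 without *S100A4*-/- replicate 2. *Epha7* (chr4:28813131-28967499) had 15.4 and 30.4 in *S100A4*-/- and 14.6 and 14.2 in WT. These values correspond to 18 and 30 reads against 14 and 13, and the replicate 2 library alone stood apart. The log2 fold change of *Epha7* was 0.56 (SE 0.49, 95% interval -0.43 to 1.55, limma adjusted p = 0.614), an interval that reached past 2-fold higher. Leaving out 1 library moved this value between 0.09 (without *S100A4*-/- replicate 2) and 1.03 (without *S100A4*-/- replicate 1).

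Among the B receptors, *Ephb4*, known from the boundary between arteries and veins, had the smallest p-value of the 10 genes. It lies at chr5:137350109-137378669 and had 742 and 793 normalized reads in *S100A4*-/- and 646 and 646 in WT. Both *S100A4*-/- libraries were above WT, and the WT libraries were nearly identical. On the log2 scale the difference was 0.25 (SE 0.08, 95% interval 0.08 to 0.42, limma adjusted p = 0.0718), or a mean 18.8% above WT.

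*Ephb2*, which guides axons and sorts cells at tissue borders, lies at chr4:136647539-136835988. It had 427 and 370 normalized reads in *S100A4*-/-, above the 346 and 319 in WT. No library overlapped the other group. The gap between the nearest libraries of the 2 groups was smaller than the spread within *S100A4*-/-. Its log2 fold change was 0.26 (SE 0.11, 95% interval 0.03 to 0.49, limma adjusted p = 0.198). Without *S100A4*-/- replicate 1 it was 0.16 and without replicate 2 it was 0.36.

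Both A ligands had higher means in *S100A4*-/-, and neither passed the adjusted p. *Efna1* (chr3:89271733-89281142), a ligand of EphA2, had 393 and 377 normalized reads in *S100A4*-/- and 332 and 341 in WT. *Efna5* (chr17:62604184-62881317), the ephrin-A linked to lens clarity, had 468 and 482 against 445 and 414. In both, the *S100A4*-/- libraries lay above the WT libraries without overlap. For *Efna1* the log2 fold change was 0.19 (SE 0.11, 95% interval -0.03 to 0.42, limma adjusted p = 0.370). For *Efna5* it was 0.15 (SE 0.10, 95% interval -0.06 to 0.35, limma adjusted p = 0.485), and 0.09 without WT replicate 2.

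The B ligands were nearly level between the genotypes. *Efnb1* (chrX:99136130-99148991), an X-linked ligand of the B receptors, had 882 and 954 normalized reads in *S100A4*-/- and 865 and 932 in WT, so the groups overlapped. *Efnb2* (chr8:8617434-8661242), the partner of EphB4 in blood vessels, had 2882 and 2794 against 2889 and 2943, with both *S100A4*-/- values just below WT. The log2 fold change was 0.03 for *Efnb1* (SE 0.08, 95% interval -0.13 to 0.19, limma adjusted p = 0.891) and -0.04 for *Efnb2* (SE 0.05, 95% interval -0.15 to 0.07, limma adjusted p = 0.785). Leaving out 1 library moved *Efnb1* between -0.025 (without *S100A4*-/- replicate 2) and 0.087 (without *S100A4*-/- replicate 1), and *Efnb2* between -0.062 (without *S100A4*-/- replicate 1) and -0.017 (without *S100A4*-/- replicate 2).

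**Figure D2:**
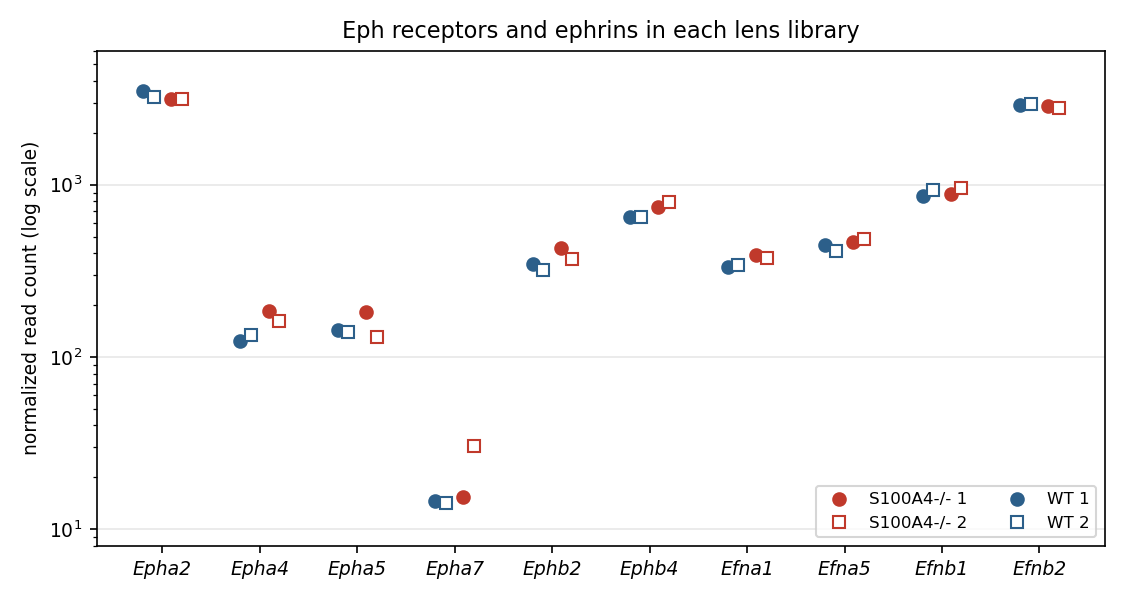
Normalized read count (vertical log axis) of each of the 10 genes (horizontal axis) in the 4 lens libraries, with red symbols for *S100A4*-/- and blue for WT, circles for replicate 1 and squares for replicate 2. *Epha2* and *Efnb2* sit highest in all 4 libraries, *Epha7* sits between 14.2 and 30.4, and apart from the replicate 2 *S100A4*-/- library in *Epha7* the red and blue symbols of each gene lie close together.

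The other 10 family genes of the table were measured the same way, and 0 of them passed the adjusted p in limma fitted on all 4 libraries without a replicate block. *Efnb3*, the third B ligand, had 72.8 and 87.2 normalized reads in *S100A4*-/- and 54.3 and 38.3 in WT. The groups did not overlap, and the log2 fold change was 0.79 (SE 0.27, 95% interval 0.25 to 1.33, limma adjusted p = 0.0683). Without WT replicate 1 its limma adjusted p was 0.0173, without each of the other libraries it ran from 0.299 to 0.451, and in DESeq2 it was 0.368. *Ephb1* had 54.0 and 52.7 against 34.5 and 37.2, a log2 fold change of 0.56 (limma adjusted p = 0.342). *Epha1* and *Efna4* went the other way, at log2 fold changes of -0.22 and -0.21 (limma adjusted p = 0.511 and 0.698), but *Epha1* was -0.40 without *S100A4*-/- replicate 1 and -0.05 without *S100A4*-/- replicate 2. *Ephb3* and *Ephb6*, the latter a receptor without kinase activity, both stood at 0.12, and *Ephb6* ran from 0.01 (without *S100A4*-/- replicate 2) to 0.23 (without *S100A4*-/- replicate 1). *Epha8*, *Epha10*, *Efna2* and *Efna3* had fewer than 41 normalized reads in every library, and together with *Epha7* they had the widest intervals of the 20 genes. In *Efna3*, *Efna4* and *Epha1* the share of windows of 50 bases found in no other gene was lower, at 91.87%, 92.32% and 94.46%, because of overlapping or antisense genes, and whether the counting used strand is not given in the sources used here, so their values are less certain. Over all 20 genes both *S100A4*-/- values exceeded both WT values in 11 (against 23.7% of all genes tested) and lay below them in 4 (against 23.2%).

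**Figure D3:**
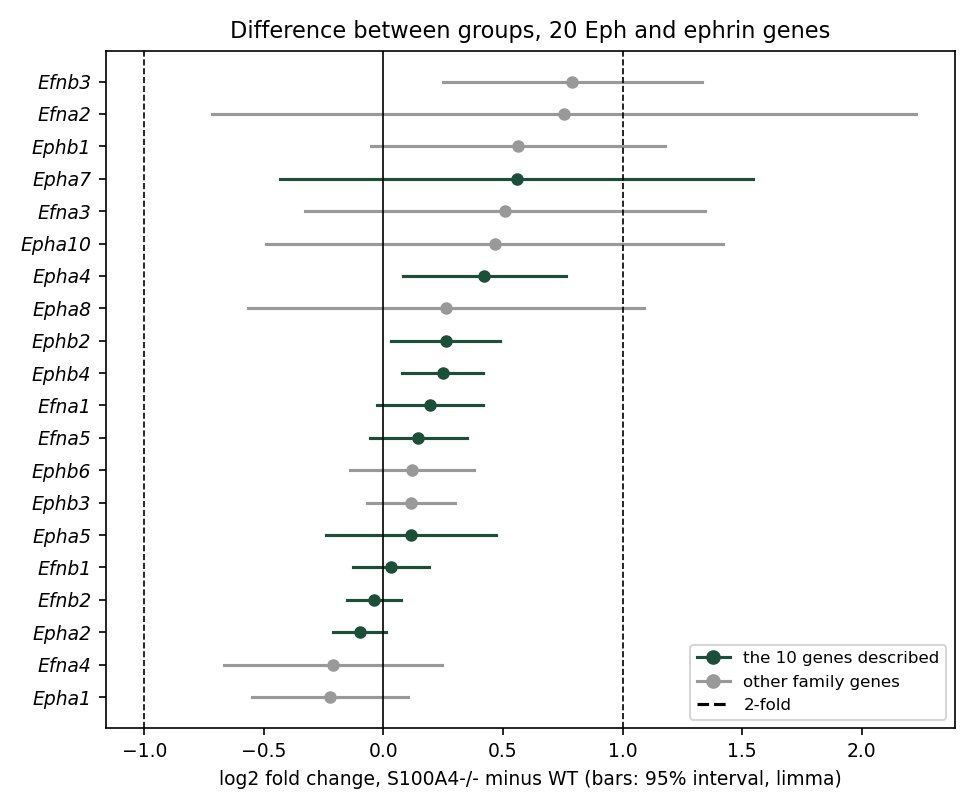
Log2 fold change, *S100A4*-/- minus WT (horizontal axis), of 20 Eph receptor and ephrin genes (vertical axis, ordered by size), with points for the limma estimate from 2 against 2 libraries, bars for its 95% interval, green for the 10 genes described and grey for the other family members. The dashed lines mark 2-fold, and among the green bars only that of *Epha7* crosses one.

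To compare levels between genes, each value was divided by the length of the gene's merged exons in kb. On this scale the WT level was 722.6 ± 40.9 (SD, n = 2) for *Epha2* and 425 ± 5.56 for *Efnb2*. The other ligands and *Ephb4* followed, with 260 ± 13.8 for *Efnb1*, 184 ± 3.27 for *Efna1*, 139 ± 0.0518 for *Ephb4* and 106.5 ± 5.43 for *Efna5*. The remaining receptors were scarcer, with 26.3 ± 1.51 for *Ephb2*, 15.9 ± 0.910 for *Epha4*, 8.49 ± 0.167 for *Epha5* and 1.46 ± 0.0275 for *Epha7*. By merged exons, the largest steps in the order were those from *Efna5* to *Ephb2* (4.04 times) and from *Epha5* to *Epha7* (5.82 times).

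The order of the 10 genes was the same in *S100A4*-/-, where *Epha2* stood at 673.7 per kb and *Epha7* at 2.32, and no neighbours in the order overlapped in their library values within either group. With the median transcript length in place of merged exons, *Ephb4* and *Efna5* changed places. The sizes of the steps changed too, with *Epha2* at 4503 and *Efnb2* at 1035 per kb in WT by that length. Within its class, *Epha2* made up 88.0% and 90.1% of the summed EphA level per kb in *S100A4*-/- and 90.4% and 89.6% in WT. *Ephb4* made up 44.4% and 45.2% of the EphB level against 43.4% and 43.0%. *Efna1* was the leading A ligand, with 54.4% and 52.7% of the ephrin-A level against 50.3% and 53.0%. *Efnb2* was the leading B ligand, with 60.2% and 57.3% of the ephrin-B level against 61.2% and 60.4%. By merged exons each class had the same leading gene in all 4 libraries. By median transcript length, *Ephb6* (377 per kb in WT) and *Ephb3* (259.6) stood above *Ephb4* (165.9), so the leading B receptor depends on the length used. The summed EphB level per kb was 361 and 378 in *S100A4*-/- against 321 and 324 in WT. That of ephrin-A was 395 and 391 against 361 and 351, and neither class overlapped between the groups. The summed EphA level was 767 and 746 against 831 and 774, lower in both *S100A4*-/- libraries. By the shares above, this sum was mostly *Epha2*. The mean of *Epha1* was also lower, but those of *Epha4*, *Epha5*, *Epha7*, *Epha8* and *Epha10* were higher in *S100A4*-/-. The ephrin-B sums, 699 and 711 against 689 and 711, overlapped. Scaled to equal totals, 0 of the 10 genes lay below WT in both libraries, and the class sums were not computed on that scale.

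**Figure D4:**
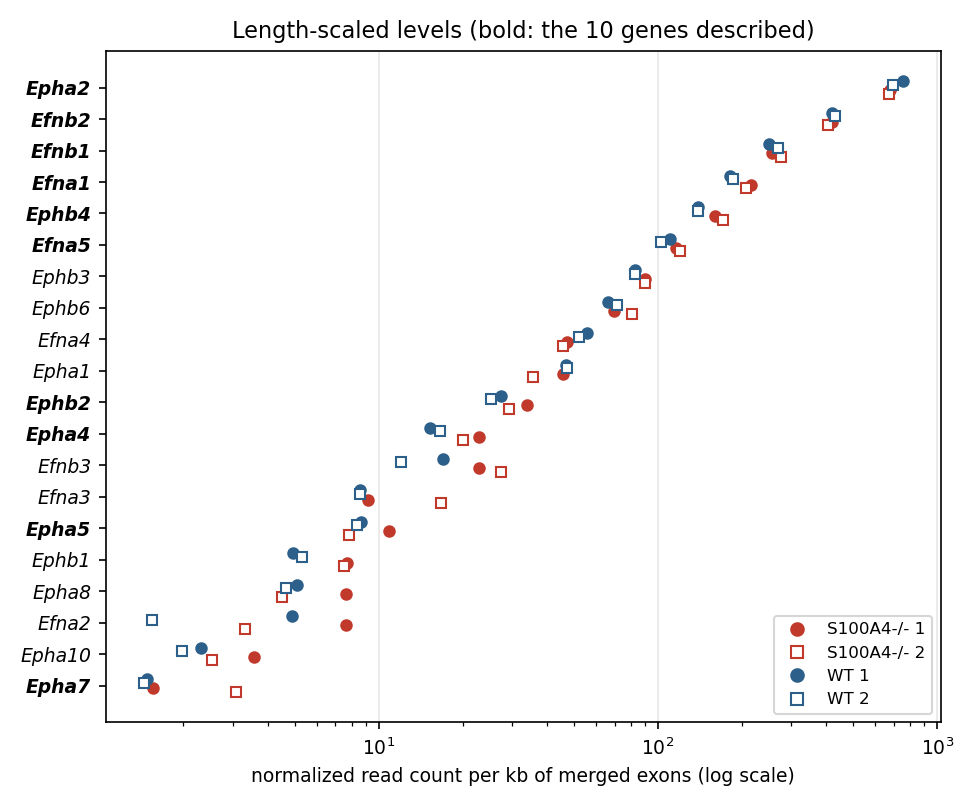
Normalized read count per kb of merged exons (horizontal log axis) of 20 Eph receptor and ephrin genes (vertical axis, ordered by WT mean, the 10 genes described in bold) in the 4 libraries, with red symbols for *S100A4*-/-, blue for WT, circles for replicate 1 and squares for replicate 2. The bold genes run from 722.6 (*Epha2*) to 1.46 (*Epha7*) in the WT mean, and *Efnb2*, *Efnb1*, *Efna1*, *Ephb4* and *Efna5* follow *Epha2* in that order.

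The genes that act with Eph receptors were counted from 4 lists of adaptors, phosphatases, PDZ partners and junction proteins. Of 60 listed genes tested, 1 was higher and 1 was lower in *S100A4*-/- at an adjusted p of at most 0.05 in limma, or 3.33% against 6.96% of all genes tested, and 0 reached 2-fold. The median log2 fold change of these 60 genes was -0.0005, beside -0.005 over all genes tested, and 11 of them were past an unadjusted p of 0.05 in limma, or 18.3% against 17.7% of all genes tested. Of these, 4 were higher (6.67%, against 11.0%) and 7 were lower (11.7%, against 6.71%). *Grb10*, an adaptor that binds activated receptor tyrosine kinases and the 1 gene of 28 that passed in its list, rose, with 137 and 141 normalized reads in *S100A4*-/- and 75.2 and 71.2 in WT. Its log2 fold change was 0.92 (SE 0.20, limma adjusted p = 0.0016), but the adjusted p was 0.142 without *S100A4*-/- replicate 1 and 0.145 without replicate 2. *Cdh2*, which encodes the N-cadherin of fiber cell junctions and was 1 of 8 in its list, fell, with 6520 and 6966 against 7422 and 7615.

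The log2 fold change of *Cdh2* was -0.16 (SE 0.05, limma adjusted p = 0.0332). This call was lost in edgeR (adjusted p = 0.0564), in DESeq2 (adjusted p = 0.0827), with equal totals (limma adjusted p = 0.298), after quantile normalization (0.119), without trend (0.503) and without any 1 of the 4 libraries (limma adjusted p from 0.0559 to 0.324). The remaining lists held 0 genes that passed: 12 partners of ephrin-B reverse signalling, and 12 phosphatases, ubiquitin ligases and proteases. At an unadjusted p under 0.05, 1 gene of the former list (8.33%) and 2 of the latter (16.7%) were higher, against 11.0% of all genes tested. In both lists 0 were lower, against 6.71%. Of the 28 kinases, adaptors and exchange factors 1 was higher and 4 were lower (14.3%), and of the 8 junction genes 0 were higher and 3 were lower (37.5%), against 6.71% of all genes tested lower. Of the most abundant genes in each, the log2 fold change was -0.03 for *Tjp1* and 0.00 for *Afdn*, both junction scaffolds (limma adjusted p = 0.831 and 0.992). It was 0.00 for *Ptprf* and -0.02 for *Ptpn11*, both phosphatases (limma adjusted p = 0.989 and 0.9).

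Markers of lens cells and of neighbouring tissues were counted in the same libraries. Of 10 lens fiber markers 0 passed the adjusted p in limma (against 6.96% of all genes tested) and 1 was past an unadjusted p of 0.05 (against 17.7%). Their sum in *S100A4*-/- was 0.958 times that in WT, with *Crybb2* the most abundant. Of 8 lens epithelial markers 1 passed, the cystine transporter gene *Slc7a11* (log2 fold change 0.32, limma adjusted p = 0.000319, but 0.137 without *S100A4*-/- replicate 1 and 0.338 in limma without trend), with a summed ratio of 0.985 and *Igfbp7* the most abundant.

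Many genes listed as markers of cells outside the lens were higher in *S100A4*-/-, where 6.96% of all genes tested passed the adjusted p in either direction. All 10 rod markers passed the adjusted p in limma, with sums of 10670 and 10326 normalized reads in *S100A4*-/- against 2557 and 2722 in WT, while *Gnat1*, the rod transducin gene, had 3339 and 3327 against 736 and 782. Of 9 markers of pigmented cells and ciliary body 7 passed, with sums of 1986 and 2061 against 373 and 486, and *Dct*, a melanin synthesis gene, had 581 and 582 against 31.3 and 44.9. Of 11 inner retinal markers 8 passed (summed ratio 1.35, *Tfap2a* the most abundant), and of 8 Muller glia markers 4 (ratio 1.03, *Vim* the most abundant). The median log2 fold change was 1.63 over the inner retinal markers and 0.995 over the Muller glia markers, so the summed ratios do not describe the typical marker. *Tfap2a* and *Vim*, with WT means of 1524 and 88852 normalized reads, did not pass (limma adjusted p = 0.922 and 0.188). Whether their RNA came from cells outside the lens was not tested.

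Blood vessel endothelium, in which *Ephb4* and *Efnb2* are also expressed, had 2 of 10 markers past the adjusted p in limma, against 6.96% of all genes tested. Its sums were 583 and 568 in *S100A4*-/- and 283 and 330 in WT, and its most abundant gene *Flt1*, a VEGF receptor, had 241 and 239 against 61.6 and 71.2. Of 6 pericyte and smooth muscle markers 3 passed (ratio 1.04, *Acta2* the most abundant, median log2 fold change 0.968). Of 7 macrophage and microglia markers 3 passed (ratio 3.03, *Csf1r* the most abundant, median 1.51). Of 5 red blood cell markers 1 passed (ratio 2.07, *Hbb-bs* the most abundant, median 0.925). No tested marker of these lists was at or below 3 reads in every library. The 10 Eph and ephrin genes summed to 9330 and 9236 in *S100A4*-/- and 9317 and 9124 in WT, a ratio of 1.01. Most of this sum was *Epha2* and *Efnb2*, whose means were below WT. The median log2 fold change of the 10 genes was 0.17, so the summed ratio does not describe the typical member. The paper reports rod and Muller glia genes as induced in the lens itself, from qRT-PCR and immunoblots of lenses. It also shows immunofluorescence of PDEγ and transducin in the lens. Whether the libraries held RNA of other cells, and its part in the values of *Ephb4*, *Epha4*, *Ephb2* and *Efnb3*, was not tested.

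**Figure D5:**
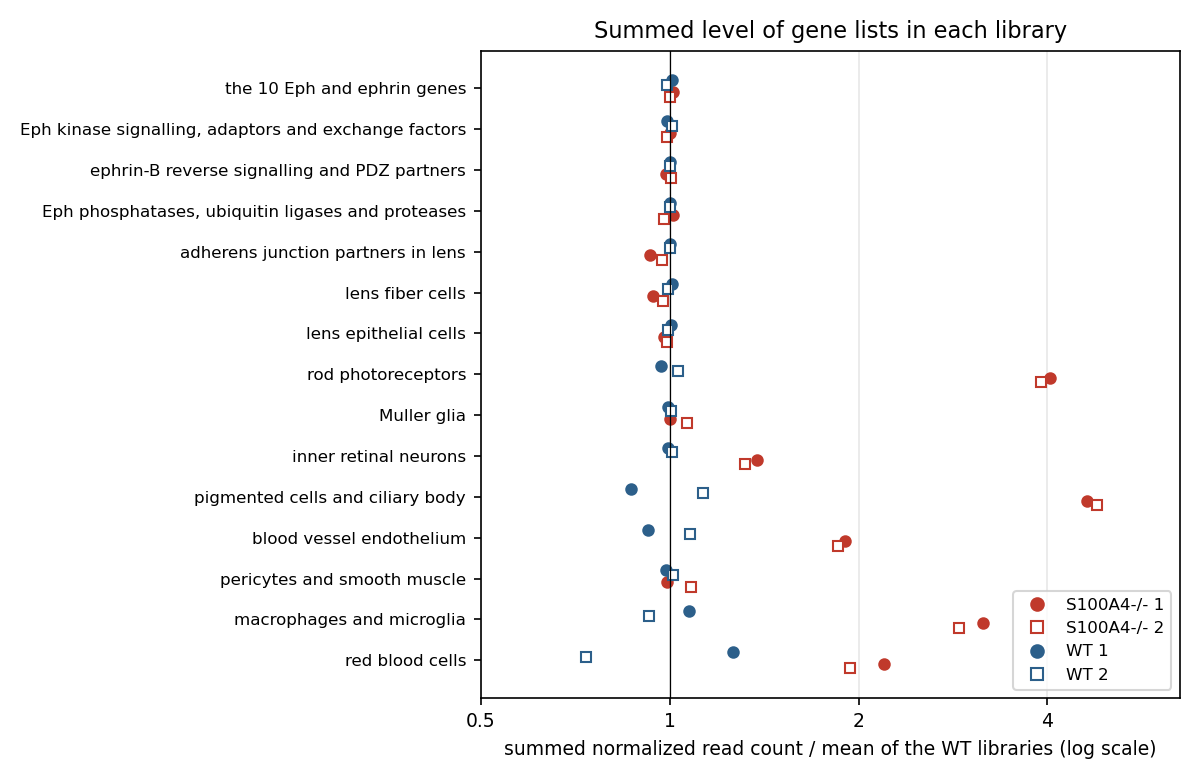
Summed normalized read count of each gene list in each library, divided by the mean of the WT libraries (horizontal log axis), for the 10 Eph and ephrin genes, 4 signalling lists and 10 cell type marker lists (vertical axis). The 10 Eph and ephrin genes and the 4 signalling lists stay near 1 in all 4 libraries, whereas the *S100A4*-/- libraries sit near 4 for rods and above 4 for pigmented cells and ciliary body. Most of the sum of the 10 genes is *Epha2* and *Efnb2*.

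The genes most like *Epha2* and *Efna5* over the 4 libraries were sought by the root mean square distance of log2 values after removing each gene's mean. For *Epha2* they were *Col6a2* (0.0071), *Ube2a* (0.009) and *Erp44* (0.0098), and for *Efna5* they were *Tox4* (0.0066), *Zfp142* (0.008) and *Dnttip2* (0.0103). Likeness over 4 libraries did not single these genes out, since 5528 of 11268 genes compared lay within 0.1 of *Epha2* and 3408 within 0.1 of *Efna5*.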

How the data were processed

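Lens RNA of 4 pooled libraries was analysed, 2 *S100A4*-/- and 2 WT, grouped by the sample labels. Trimming (Trim Galore), alignment to GRCm38 (STAR) and counting of reads with a single locus (HTSeq) were done by the authors. They retained genes reaching 10 reads in any library and scaled the counts with size factors from DESeq2. The versions are not given in the sources used here. The deposited signal values are these normalized counts for 14924 genes. Dividing by the value of 1 read gave whole numbers in 100.0% of cases (tolerance 0.1 read), so reads were recovered. No column lacked a sample (0 columns).

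From the deposited signal, log2(value + 1) was fitted with limma 3.58.1 (R 4.3.3, trended variance) in the 14780 genes whose value reached 10 in any library. The fit used all 4 libraries, with p-values adjusted by Benjamini-Hochberg over all genes tested. Fold changes are on this scale, which understates changes of low genes. Of the genes, 144 were left out. edgeR 4.0.16 and DESeq2 1.42.0 were run on the recovered reads as alternatives, and 15 alternative settings were tried in all. The fitting step was tested on simulated data. Lengths and 14782 gene matches came from GENCODE M21, and Python 3.11.15 was used for tables. The floor of detection was 3 reads (2.57 to 3.28 normalized), which covers counting error only. The genes named are all family genes and, in each signalling list, up to 6 genes that passed the adjusted p (smallest p first) or, where none passed, the 2 most abundant. The *Grb10*, *Cdh2*, *Slc7a11*, *Gnat1*, *Dct* and *Flt1* values were also refitted under every alternative. *S100A4*-/- replicates differed beyond sampling noise (chi-square per degree of freedom 45.17), as did WT replicates (19.08). The members and lists were chosen with earlier results of these data known, and the alternatives for these 6 genes, and for members counted by unadjusted p, by interval or as above or below WT, were added after seeing the data. A list of genes that the design named is not reported here.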

Additional observations from a re-analysis of the deposited data

How the results depend on the processing

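Over 15 alternative settings, 286 of 294 values of the family's log2 fold changes kept their direction and side of the threshold, 3 became past it and 5 reversed. Members with a 95% interval within 2-fold numbered 9 under each limma setting, but *Epha7*, the exception in the main fit, was not tested at a mean value of at least 50. Genes at least 2-fold higher at the adjusted p numbered 539, but 281 at a mean value of at least 50 and 174 in limma without trend, and 168 to 546 when 1 library was left out. Those lower numbered 11, but 6 at a mean of at least 50, 23 after quantile normalization, 7 without trend, 6 in DESeq2 and 4 to 13 when 1 library was left out. With the replicate block, 1 of the 10 genes passed the adjusted p (*Ephb4*, limma adjusted p = 0.0346) and 2 of the 20 family genes (with *Efnb3*, 0.0408), against 1330 of 14780 genes in that fit. Nothing in the labels pairs equal numbers, and the difference of replicate 1 and 2 correlated between groups at r = 0.012 over 14780 genes. When 1 library was left out, 0 to 1 family genes passed (against 1.68% to 6.08% of all genes), and the lone library was assumed to vary like the others. *Epha8* reversed after quantile normalization (-0.038) and ran from -0.103 to 0.627 when 1 library was left out. *Epha5* ran from -0.119 to 0.351 and *Efnb1* from -0.025 (with -0.023 without WT replicate 1) to 0.087. Quantile normalization moved other values in size, among them *Ephb1* from 0.561 to 0.319, *Epha7* from 0.558 to 0.25 and *Efna4* from -0.21 to -0.384. Members past an unadjusted p of 0.05 numbered 3, but 1 after quantile normalization, in DESeq2 and without *S100A4*-/- replicate 1 (against 17.0%, 11.0% and 13.4% of all genes). Members below WT in both libraries numbered 2, but 1 with TMM factors, 0 with equal totals and 1 after quantile normalization. Those above WT in both libraries numbered 6, and 6, 7 and 5 under the same settings in that order. Shares of all genes are not given for these scalings, so the counts describe the members only. The causes were not tested. *Epha7* had 13 to 30 reads a library and *Efna2* 3 to 19, and the part of depth in their wide intervals was not tested.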
